A study of Homo sapiens with 6 samples.

Results

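The chromosome 11 cluster of miR-192 and miR-194 and its chromosome 1 counterpart of miR-194 and miR-215 were followed in small RNA libraries of extracellular vesicles. Members were the rows named miR-192, miR-194 or miR-215 once the arm was removed, which were 4 of the 1007 miRNA names counted: hsa-miR-192-5p, hsa-miR-194-5p, hsa-miR-194-3p and hsa-miR-215-5p. All 4 had enough counts for the test across miRNAs.

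The vesicles were pelleted from the medium of MHCC97H, a human hepatoma line of high metastatic potential, and RNA of 18 to 30 nt was sequenced. Of the 6 libraries, 3 were from cells treated with 4 µmol/L xanthatin for 24 h, and 3 were controls. Xanthatin is a plant sesquiterpene lactone, found in the genus Xanthium. Per the labels' protocols DMSO was at 0.5% throughout. The medium held 5% fetal bovine serum beside 5% serum without exosomes. Separate cultures are not stated for the replicates, so p-values measure the spread between these samples, which may be technical.

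A miRNA is cut from a hairpin whose stem gives a 5p and a 3p strand, and one of them is usually kept in Argonaute while the other is degraded. It silences messenger RNAs that match its seed, bases 2 to 8. miR-192 and miR-194 are abundant in liver, gut and kidney epithelium, and p53 is known to induce them. miR-194 is known to repress N-cadherin, a mesenchymal adhesion protein, in liver cancer cells.

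The mature sequences show which counts can be assigned to which locus. All 4 members matched a RefSeq entry (GRCh38.p14), and the capitals mark the seed.
miR-192-5p: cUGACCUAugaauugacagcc
miR-215-5p: aUGACCUAugaauugacagac
miR-194-5p: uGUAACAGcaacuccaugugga
miR-194-3p: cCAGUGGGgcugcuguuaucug

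miR-192-5p and miR-215-5p share the seed UGACCUA and 19 of 21 bases. Counted from the 5′ end of miR-192-5p they differ by C1A and C20A, so a read trimmed at both ends does not separate them, and the miR-215-5p counts are uncertain for that reason. No other name among the 444 of 497 known names with a RefSeq sequence carried either miR-194 seed. The nearest name to either miR-194 arm was 8 differences away, in ungapped alignment with end offsets counted.

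The miR-194 hairpins show the difference between the arms. In MIR194-2 (chr11:64891355-64891439, minus strand) the capitals mark both arms, and in MIR194-1 (chr1:220118157-220118241, minus strand) they mark the 5p arm.
MIR194-2: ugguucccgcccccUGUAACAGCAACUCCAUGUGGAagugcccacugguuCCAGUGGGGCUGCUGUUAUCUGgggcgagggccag
MIR194-1: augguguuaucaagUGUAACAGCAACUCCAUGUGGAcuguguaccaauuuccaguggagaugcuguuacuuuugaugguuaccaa

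The 5p arm is the same in both hairpins, so its count sums both loci. miR-194-3p matches MIR194-2 alone. Against the best ungapped window of MIR194-1 it differs at 5 of 22 bases, which are G8A, C10A, U19C, C20U and G22U from the 5′ end of miR-194-3p. RefSeq gives no 3p arm for MIR194-1. In GENCODE release 29 MIR192 (chr11:64891137-64891246, minus strand) lies 108 nt downstream of MIR194-2. An exon of the long noncoding RNA MIR194-2HG overlaps each of them on the same strand. MIR215 (chr1:220117853-220117962, minus strand) lies downstream of MIR194-1, and both are in introns of IARS2, the mitochondrial isoleucyl-tRNA synthetase gene, on the opposite strand.

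**Figure D1:**
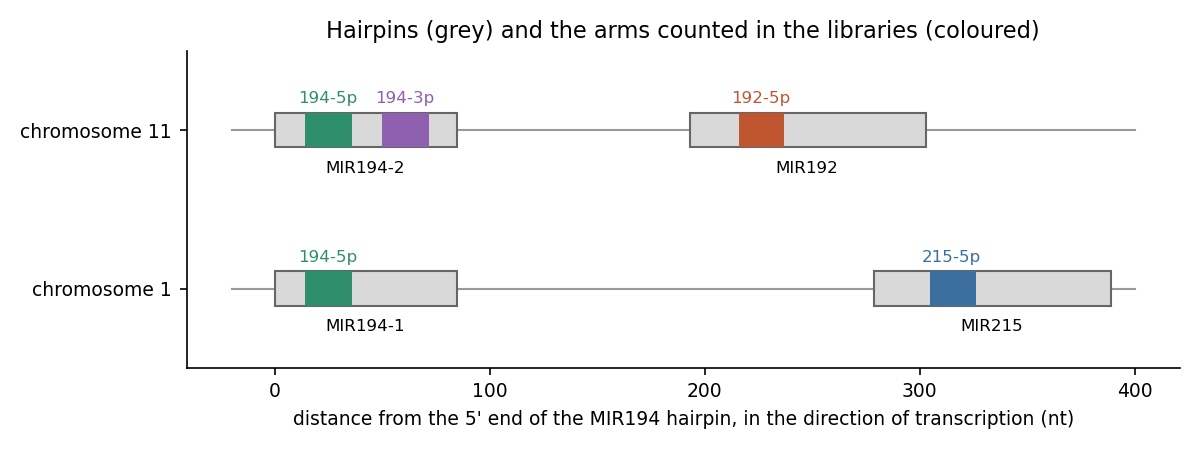
The MIR194 hairpin and its neighbour on chromosomes 11 and 1, with distance in nt from the 5′ end of the MIR194 hairpin in the direction of transcription. Grey bars are hairpins and coloured bars the arms analysed. miR-194-3p and miR-192-5p lie at the chromosome 11 locus, miR-215-5p at the chromosome 1 locus, and miR-194-5p at both.

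The libraries held 204520 to 267956 miRNA counts with xanthatin and 63965 to 80088 in controls, so 1 count was worth 4.16 to 5.55 CPM (counts normalised to TMM-scaled library sizes) with xanthatin and 11.6 to 13.3 CPM in controls. Hepatocyte markers were counted in both groups, which does not verify the tissue label. In these libraries of unequal depth miR-122-5p had 225, 236 and 218 counts with xanthatin against 4316, 4535 and 2848 in controls. Without the members, the hepatocyte markers took 1.97% to 2.63% of counts with xanthatin and 10.8% to 13.9% in controls. Markers of other cells moved with treatment too. The 7 blood and serum names took 0.0664% to 0.0719% with xanthatin and 0.625% to 1.19% in controls, and the 8 stromal and endothelial names 0.0616% to 0.0885% with xanthatin and 0.413% to 0.566% in controls. Of the blood and serum names only miR-486-5p could be tested, and it held most of their counts in every library, with 167, 139 and 115 counts with xanthatin and 949, 432 and 497 in controls. miR-16-5p, too scarce to test, had 3, 29 and 31 counts with xanthatin and 4, 4 and 2 in controls. Of the stromal names miR-10b-5p had 129, 134 and 137 counts with xanthatin and 196, 203 and 147 in controls. miR-143-3p had 13, 21 and 22 counts with xanthatin and 169, 69 and 180 in controls. miR-145-5p, too scarce to test, had 0 counts in every xanthatin library and 5, 0 and 3 in controls. Their part in the results on the members was not tested.

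miR-192-5p was higher in vesicle libraries of xanthatin-treated cells. Within miR-194 the 5p arm had more counts than the 3p arm in 2 of 3 xanthatin libraries and in 0 of 3 controls, a difference between arms that did not pass the test. Of the 4 members, 1 rose, none fell and 3 did not pass (threshold, adjusted p of 0.05 from edgeR's quasi-likelihood test). Of the 254 miRNAs tested 30.3% passed, with 13.4% higher and 16.9% lower in xanthatin libraries. Over those miRNAs 34 were higher and 43 lower (22 higher and 60 lower with library totals only), and the median log2 fold change was -0.16. The log2 fold change was 1.22 for miR-192-5p, 1.67 for miR-194-5p, -1.80 for miR-194-3p and -0.38 for miR-215-5p. In such bulk samples fewer vesicles carrying a miRNA and fewer copies per vesicle cannot be told apart.

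miR-192-5p, the chromosome 11 member, was the most abundant of the 4 in every library. It had 1851, 2243 and 1757 counts with xanthatin and 414, 403 and 154 counts in controls. Scaled, these were 8763, 9325 and 9758 CPM with xanthatin and 4792, 5092 and 2049 CPM in controls. The lowest xanthatin library lay above the highest control, and control replicate 3 was far below the other controls. Such a separation was common: of the miRNAs tested, 25.2% lay higher in every xanthatin library, 29.5% lay lower, and 54.7% were separate one way or the other. miR-192-5p ranked 23rd of the 1007 names by mean CPM with xanthatin and 36th in controls.

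It averaged 9282 ± 499 CPM with xanthatin and 3978 ± 1677 CPM in controls (SD, n = 3 each). The log2 fold change was 1.22 (SE 0.34), with a 95% interval of 0.40 to 2.05 and an edgeR adjusted p = 0.0399. On the authors' deposited TPM, whose scaling total exceeds the miRNA counts, it stood at 64.1, 70.4 and 65.4 with xanthatin and at 34.1, 40.6 and 16.4 in controls. Leaving out control replicate 1 ended the edgeR call (1.33, adjusted p = 0.0832), as did leaving out xanthatin replicate 1, 2 or 3 (1.29, 1.24 and 1.24, adjusted p = 0.0823, 0.0943 and 0.0876). It held without control replicate 2 (1.57, adjusted p = 0.0233) and without control replicate 3 (0.97, adjusted p = 0.0163), and was lost with scaling by upper quartiles (1.27, adjusted p = 0.0556) or by totals alone (0.89, adjusted p = 0.0791).

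**Figure D2:**
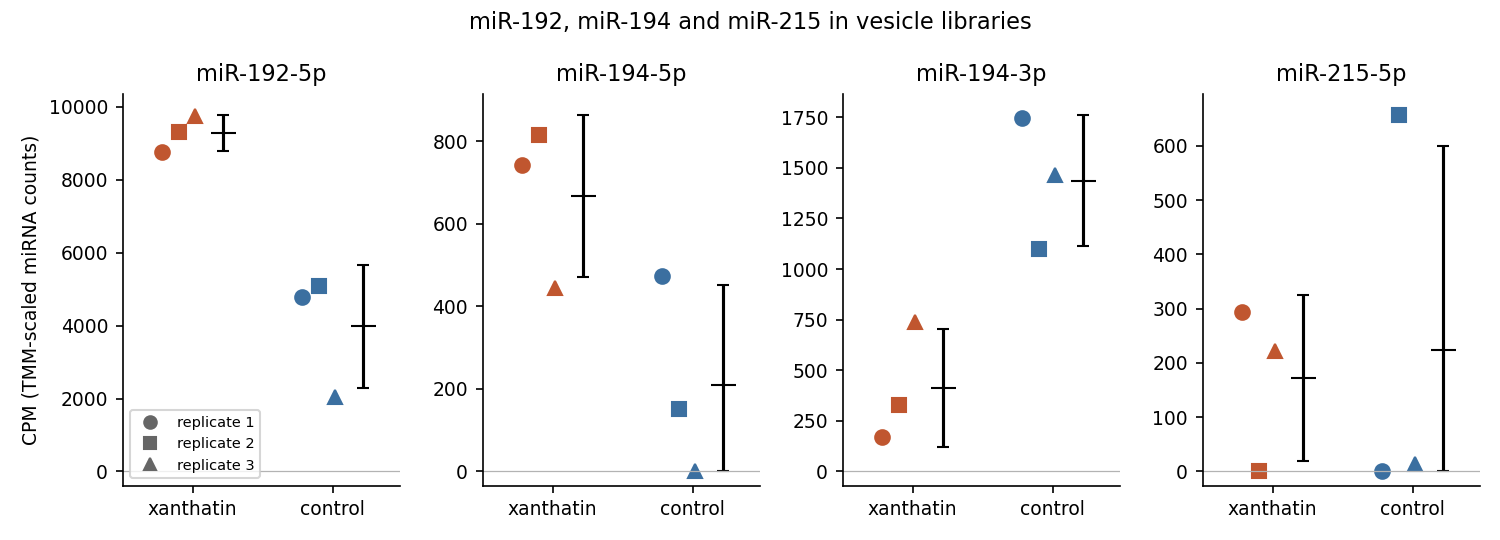
CPM of the 4 members in each library, one panel each with its own linear scale; symbols mark replicate numbers, and horizontal marks with bars the mean and SD (n = 3), cut at 0. miR-192-5p lies between 8763 and 9758 CPM with xanthatin and at 5092 CPM or less in controls, miR-194-3p lies lower with xanthatin, and the groups overlap for miR-194-5p and miR-215-5p.

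miR-194-5p, the strand usually taken as the guide of miR-194, had 157, 196 and 80 counts with xanthatin and 41, 12 and 0 counts in controls. In CPM these were 743, 815 and 444 with xanthatin and 475, 152 and 0 in controls. The groups overlapped, because xanthatin replicate 3 lay just under control replicate 1. A count of 0 in control replicate 3 allows up to 39.9 CPM (3 counts), for counting error only. The log2 fold change was 1.67 (SE 1.22), and its 95% interval ran from -1.27 to 4.60 (edgeR adjusted p = 0.338). That interval includes both no difference and the size seen for miR-192-5p. Without control replicate 1 the log2 fold change was 3.07 (edgeR adjusted p = 0.150), and it did not pass under any of the 18 alternatives.

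miR-194-3p, the other strand of the chromosome 11 hairpin, lay the other way. It had 36, 79 and 133 counts with xanthatin and 151, 87 and 110 counts in controls, although the xanthatin libraries were deeper. In CPM it stood at 170, 328 and 739 with xanthatin and at 1748, 1099 and 1464 in controls. All 3 xanthatin libraries were below all 3 controls, with replicate 3 the nearest to them. The log2 fold change was -1.80 (SE 0.58, 95% interval -3.19 to -0.41), which missed the threshold in edgeR at an adjusted p = 0.0585. It passed under 9 of 18 alternatives, among them leaving out xanthatin replicate 3, at -2.47 (edgeR adjusted p = 0.0201), and DESeq2, at -1.74 (adjusted p = 0.00901). On the deposited TPM scale the values were 1.25, 2.48 and 4.95 with xanthatin and 12.4, 8.77 and 11.7 in controls. With that total as library size, the edgeR log2 fold change was -1.92 and passed (adjusted p = 0.0411).

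miR-215-5p, the seed partner of miR-192-5p from chromosome 1, was sporadic in both groups. It had 62, 0 and 40 counts with xanthatin and 0, 52 and 1 counts in controls. Control replicate 2 was the highest library in CPM, at 657, while xanthatin replicates 1 and 3 stood at 294 and 222. The log2 fold change was -0.38 (SE 2.07), and the 95% interval, -5.38 to 4.62, covered large differences in either direction (edgeR adjusted p = 0.936). Without control replicate 2 it was 4.62 (edgeR adjusted p = 0.250).

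The 4 mature strands are 21 or 22 bases long, so their counts can be set beside each other without a length term. With xanthatin the order of mean CPM was miR-192-5p, miR-194-5p (667 ± 197), miR-194-3p (413 ± 293) and miR-215-5p (172 ± 153; SD, n = 3). In controls it was miR-192-5p, miR-194-3p (1437 ± 325), miR-215-5p (223 ± 376) and miR-194-5p (209 ± 242; SD, n = 3). The arms of miR-194 overlapped each other across xanthatin libraries but not across controls. In each group miR-215-5p overlapped its neighbours in the order, except miR-194-3p in controls.

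Set within a library, the arms of miR-194 do not depend on library size or scaling. The 5p arm made up 81.3% of the miR-194 counts of xanthatin replicate 1 (95% Wilson interval 75.3 to 86.2), 71.3% in replicate 2 (65.7 to 76.3) and 37.6% in replicate 3 (31.3 to 44.2). In controls it made up 21.4% in replicate 1 (16.1 to 27.7), 12.1% in replicate 2 (7.07 to 20.0) and 0 of 110 counts in replicate 3 (Wilson upper limit 3.37). The xanthatin shares were all above the control shares, and the 5p arm was the larger in 2 of 3 xanthatin libraries and in 0 of 3 controls. These limits reflect counting error alone and take each count as a separate molecule. The mean share was 63.4% ± 22.9 with xanthatin and 11.2% ± 10.7 in controls (SD, n = 3 each), a difference of 52.2 percentage points. The two-sided exact permutation test gave p = 0.1, the smallest that 3 against 3 libraries allow. Separate shares were common among the 21 known miRNAs with both arms tested, and not limited to miR-194. The 5p share was higher in every xanthatin library than in any control for miR-149, miR-99b, miR-28, miR-125a and miR-483 too. It was lower in every xanthatin library for miR-92b, miR-23b, miR-27a and miR-197.

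**Figure D3:**
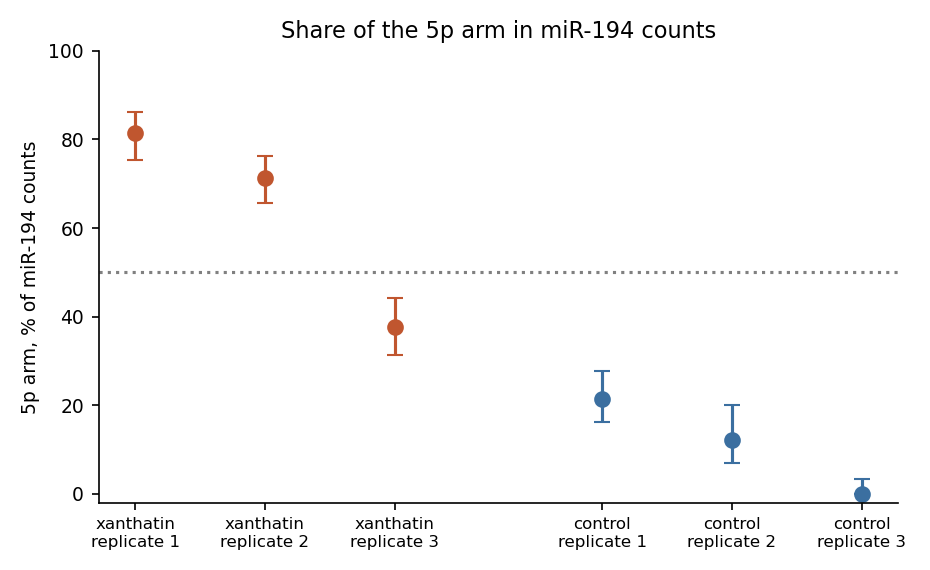
Share of the 5p arm among miR-194 counts in each library, in percent, with 95% Wilson intervals; the dotted line marks equal counts of both arms. The xanthatin libraries lie at 81.3%, 71.3% and 37.6%, all above the controls at 21.4%, 12.1% and 0%.

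The arm difference was also tested in 1 edgeR model over the 21 known miRNAs whose 5p and 3p arms were both tested, with the library as a factor. For miR-194 the 5p to 3p ratio was higher with xanthatin by 4.44 on the log2 scale (SE 1.78, 95% interval 0.05 to 8.84). The unadjusted p from edgeR was 0.0481, and the adjusted p = 0.101 missed the threshold, where 14.3% of the 21 pairs passed. The value stayed between 3.28 and 5.62 with any one library left out. The pairs that passed were miR-99b (3.19, adjusted p = 0.0411) and miR-125a (1.60, adjusted p = 0.0411) toward the 5p arm and miR-92b (-1.45, adjusted p = 0.0411) toward the 3p arm. In edgeR 0 pairs passed without control replicate 1, 2 or 3 or xanthatin replicate 1, and 1 passed without xanthatin replicate 2, while 5 to 8 pairs had an unadjusted p under 0.05 in those fits.

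miR-194 had the second-highest value of the 21, after miR-149 (5.84, edgeR adjusted p = 0.0891). The median over all pairs was 0.57. The arms had log2 fold changes of opposite sign in 11 of the 21 pairs, and in 0 of those pairs did both arms pass the edgeR test. The arm with more counts, summed over a group, differed between xanthatin and control in 3 pairs, which were miR-149, miR-194 and miR-1307. Noise alone can give opposite signs, so this count does not show that arms moved apart. By sign, miR-194 cannot be called particular among these pairs.

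**Figure D4:**
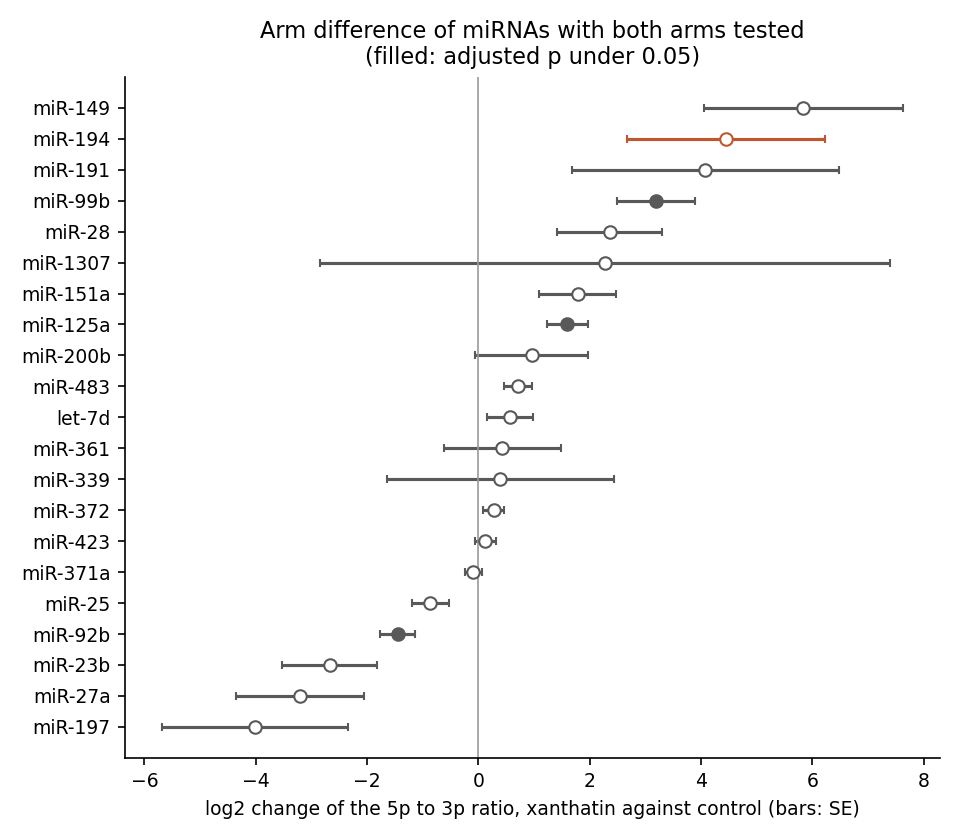
Change of the 5p to 3p ratio, xanthatin against control, on the log2 scale for the 21 miRNAs with both arms tested; bars are SE and filled points passed at an adjusted p under 0.05. miR-194, at 4.44, is open, and miR-99b, miR-125a and miR-92b are filled.

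Both arms together gave 914, 1143 and 1183 CPM of miR-194 with xanthatin and 2222, 1251 and 1464 CPM in controls. The sum was thus lower in every xanthatin library, by a narrow margin in replicate 3. It averaged 1080 ± 145 CPM with xanthatin and 1646 ± 511 CPM in controls (SD, n = 3). The two-sided exact permutation p was 0.1, the smallest possible. These sums rest on TMM scaling, and other scalings were not tried on them. Separate groups were common, at 54.7% of the miRNAs tested.

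miR-192-5p and miR-194-3p come from one primary transcript, so their ratio sets co-transcribed strands side by side; it was chosen after the values were seen. For each count of miR-194-3p there were 51.4, 28.4 and 13.2 counts of miR-192-5p with xanthatin and 2.74, 4.63 and 1.40 in controls. The lowest xanthatin ratio was above the highest control ratio. This had to be so, as in CPM miR-192-5p lay above and miR-194-3p below all controls in every xanthatin library. The mean log2 ratio was 4.73 ± 0.98 with xanthatin and 1.38 ± 0.86 in controls (SD, n = 3 each), a difference of 3.35. With any one library left out the difference was 2.89 to 3.86. The two-sided exact permutation p was 0.1, the smallest possible. The separation of both members fixed this p, so the ratio adds no support beyond their own values.

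The ratio of miR-192-5p to miR-194-5p overlapped between the groups. It was 11.8, 11.4 and 21.96 counts to 1 with xanthatin and 10.1 and 33.6 to 1 in control replicates 1 and 2. Control replicate 3 had 154 counts of miR-192-5p and 0 of miR-194-5p, so no ratio was formed there. With 0.5 added to each count the log2 ratio averaged 3.84 ± 0.53 with xanthatin and 5.53 ± 2.52 in controls (SD, n = 3 each; two-sided exact permutation p = 0.4). The difference of -1.70 moved with single controls: it was -0.33 without control replicate 3 (exact permutation p = 0.7) and -2.80 without control replicate 1 (p = 0.1, where the groups no longer overlapped).

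**Figure D5:**
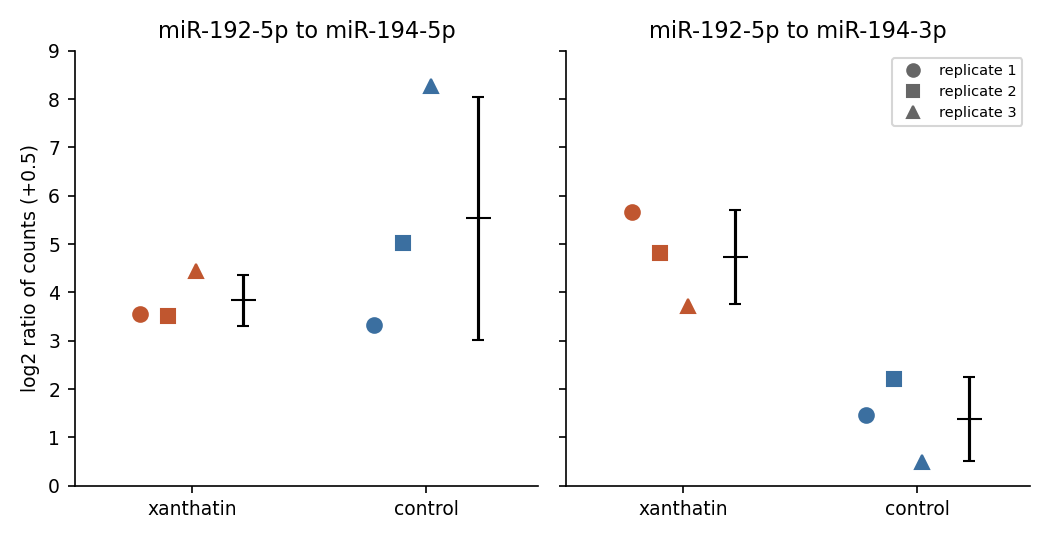
Log2 ratio of counts (0.5 added) of miR-192-5p to each arm of miR-194 within a library; horizontal marks with bars are mean and SD (n = 3). The ratio to the 3p arm averages 4.73 with xanthatin and 1.38 in controls, while the ratio to the 5p arm overlaps between the groups.

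Together the 4 members took 0.883%, 0.940% and 0.983% of miRNA counts with xanthatin and 0.757%, 0.789% and 0.414% in controls. miR-192-5p made up 88.1% ± 0.86 of the members' counts with xanthatin and 66.4% ± 7.50 in controls (SD, n = 3 each). The two-sided exact permutation p was 0.1, the smallest possible. That share draws on the same counts as the ratios above, so it adds no separate support.

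Over the 6 libraries log2(CPM + 1) of miR-192-5p followed miR-194-5p (Pearson r = 0.91) and ran against miR-194-3p (r = -0.70). The arms of miR-194 had r = -0.52. These values are descriptions over 6 libraries that share treatment and depth differences. The r of 0.91 may lean on control replicate 3, where miR-194-5p had 0 counts and miR-192-5p was at its lowest. Its value without that library was not computed. miR-642a-3p and miR-30a-3p, named below as alike to miR-194-5p, had 1 count each in that library. Of the 253 other tested miRNAs, the most alike to miR-192-5p were the predicted sequences novel264_mature, novel287_mature and novel723_mature (r = 0.98, 0.98 and 0.96). The most alike to miR-194-3p were miR-149-3p, novel222_mature and miR-205-5p (r = 0.96, 0.93 and 0.93). For miR-194-5p they were miR-642a-3p, miR-30a-3p and novel68_mature (r = 0.98, 0.94 and 0.93), and for miR-215-5p novel114_mature, miR-582-3p and miR-4443 (r = 0.94, 0.92 and 0.92).

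The list of hepatocyte and liver epithelial miRNAs had 11 tested names, the 4 members among them. miR-192-5p rose, 3 fell and 7 did not pass in edgeR, where 30.3% of all miRNAs tested passed. The 3 were miR-122-5p, which dominates the miRNA pool of hepatocytes (-5.48), miR-148a-3p (-1.29) and miR-483-5p, whose hairpin sits within IGF2 (-1.40). The list's median log2 fold change was -0.46, against -0.16 over all miRNAs tested. Of the other listed names that did not pass, apart from the members, miR-483-3p was at -2.09, miR-378a-3p at 0.997, miR-22-3p at -0.46 and miR-27b-3p at 0.42.

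The list of p53-responsive miRNAs had 5 tested names, the 4 members and miR-143-3p. Of these miR-192-5p rose, miR-143-3p fell (-4.26, edgeR adjusted p = 0.00272) and 3 did not pass. Over all miRNAs tested 30.3% passed, with 13.4% higher and 16.9% lower. With 5 names these calls do not set the list apart. The list's median was -0.38. miR-143-3p is also a marker of stromal cells, whose list is given above. miR-34c-5p, of the best known p53-induced family, was too scarce to test, with 0, 0 and 2 counts with xanthatin and 1, 1 and 3 in controls.

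Epithelium of gut and kidney also carries miR-192 and miR-194. Of the 5 tested names on its marker list, miR-192-5p rose, miR-10a-5p fell (-0.57, edgeR adjusted p = 0.0144) and 3 did not pass. Against 30.3% passing over all miRNAs tested, these calls do not set this list apart either. Without the members that list took 0.818% to 0.923% of counts with xanthatin and 1.43% to 1.94% in controls.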

How the data were processed

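Small RNA libraries of vesicles from 3 xanthatin-treated and 3 control samples were analysed. Per the file headers, the authors deposited both raw counts and TPM values for every mature miRNA. The deposited counts were whole and not normalised. The deposited TPM took no account of length, since each library's counts were divided by a single constant, whose basis is not stated. Per the submitters' processing notes, reads were placed on hg38; the aligner, miRNA database and counter are not stated in these sources. Of 1007 rows, 45 named several miRNAs, none of them a member.

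Counts were tested with edgeR 4.0.16 (R 4.3.3) by the quasi-likelihood test, scaled by TMM and filtered with edgeR's defaults (minimum count 10), which left 254 miRNAs, and adjusted by the Benjamini-Hochberg method. The SE was derived from the fold change and its F statistic. The arm model had terms for library, arm and arm by treatment. Ratios were compared by exact permutation. Both models were tested on simulated data, where false calls were few but many true differences were missed. For the test across miRNAs, recovery was 7.9% when the groups differed by a factor of 2. At a factor of 4 recovery was 25%, and at a factor of 8 it was 46.5%. False calls made up 2.63% of its calls. The arm model recovered 58.3% of arm ratios altered by a factor of 16, with 1 false call among 150 unchanged cases. A result that did not pass is therefore weak evidence of no change.

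Members and lists were chosen with earlier results of these data known. Named beyond the members were the 3 miRNAs most alike to each, up to 3 called arm pairs per direction and tested names of lists that hold a member. The arm pairs miR-149 and miR-1307 and the arm pairs with separate shares were named after their values were seen. So were the ratio of miR-192-5p to miR-194-3p and untested or marker names with counts. Alternatives were other scalings, filters and tools (DESeq2 1.42.0, limma 3.58.1), a replicate block, thinned libraries, known names only and leaving out each library. Replicates differed from each other beyond sampling noise (chi-square of 8.52 to 12.8 per degree of freedom), and none were identical. Sequences are from RefSeq and gene positions from GENCODE release 29.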

Additional observations from a re-analysis of the deposited data

How the results depend on the processing

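miR-192-5p was higher with xanthatin under all 18 alternatives. It passed in 11 of them. Its call was lost with upper-quartile factors (1.27, edgeR adjusted p = 0.0556), library totals only (0.89, adjusted p = 0.0791) and the replicate block. The call was also lost without control replicate 1 or xanthatin replicate 1, 2 or 3, and the range with a library left out was 0.97 to 1.57. miR-194-3p was lower under all 18 and passed in 9: with DESeq2 (-1.74), limma-trend (-2.03), limma-voom (-2.07), thinned libraries (-1.88), scaling by upper quartiles (-1.74), RLE (-1.73), the TPM's implied total (-1.92) or totals alone (-2.14) and without xanthatin replicate 3, with a range of -2.47 to -1.40 over left-out libraries. miR-194-5p stayed positive (1.23 to 3.95) without passing. miR-215-5p changed sign with limma-trend (0.93), with the block (2.55) and without control replicate 2 (4.62) or xanthatin replicate 2 (0.22), over a range of -1.06 to 4.62. The miR-194 arm difference passed in 1 of 11 alternatives, limma on ratios with a pseudocount of 2 (4.31, adjusted p = 0.0494). That setting called 6 pairs and edgeR 3. edgeR called 0 of 50 pairs when 10 counts per arm sufficed (10 at an unadjusted p under 0.05; limma on the 21 pairs called 4 or 6) and 0 to 3 with a library left out. Called miRNAs were 77, 49 with known names only, where fewer names were tested, and 56 to 69 with a library left out. DESeq2 called 114 (60 higher, 54 lower), and 67 passed with no count filter (37 higher, 30 lower), where edgeR's default filter gave 34 higher and 43 lower. The median log2 fold change of all miRNAs moved by 0.11 with RLE, -0.10 with the implied total and -0.33 with totals only; causes of the other changes were not tested.

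The replicate numbers showed no pairing of the samples: deviations of same-numbered libraries correlated at 0.09, -0.08 and -0.14. With 3 libraries a group, such values cannot show that no pairing exists. With a replicate block 54 miRNAs were called, and miR-192-5p, at 1.32, did not pass (adjusted p = 0.0715). The ratio of miR-192-5p to miR-194-5p has no value with a pseudocount of 0, because 1 library had 0 counts. miR-194-5p and miR-215-5p had 0 to 52 counts in control libraries, which limits their precision.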
